A study of Homo sapiens with 3 samples.

Results

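The genes described here are 2 transcription factors of the gastrointestinal lineage, HNF4A and HNF4G, and 5 markers of gut-type epithelium, SPINK1, MUC13, AGR2, TFF3 and CDH17. They were chosen by name, with earlier results of these data known. Each was found by its Ensembl gene identifier on 1 row, so 7 of the 27024 counted genes are covered. Their RNA was measured by RNA-seq in 3 libraries of 22Rv1 cells labelled WT and numbered as replicates 1 to 3. 22Rv1, an established line of human prostate carcinoma cells, was grown in serum-containing medium. WT cells keep the enhancer that the study deleted in its KO lines and carry the non-risk G allele of its SNP on both copies. The methods of the paper name 3 control clones for RNA-seq and its results name biological replicates, while the labels number the libraries without saying whether they came from separate clones or cultures, so the SD and p-values below measure the spread between these 3 libraries. The libraries of other genotypes were not analysed here, so levels in WT cells are described and no effect of the enhancer is given.

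HNF4A and HNF4G are related nuclear receptors that bind DNA as dimers and drive genes of the liver, intestine, pancreas and kidney. In the gut, their targets include brush border proteins and lipid transport proteins. A subset of prostate cancers, castration-resistant ones among them, is known to switch on a program of gastrointestinal genes that includes HNF4G and the secreted protease inhibitor SPINK1. Mucin and trefoil proteins protect the gut surface, AGR2 helps mucins to fold, and CDH17 joins intestinal cells.

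The depth was between 35675670 and 38629080 recovered reads per library. Levels are given as normalized counts, for which the authors had divided the reads of a library by its size factor, and a gene is called expressed where every library reached 1 CPM, a level scaled by library size that stands for 35.7 to 38.6 reads here. Under this rule 47.7% of all counted genes and 63.8% of 19142 protein-coding genes were expressed. Each of 11 genes of prostate identity was expressed, with means from 269 normalized counts for ACP3 to 25161 for KRT8. Of 17 measured markers of leukocytes, endothelium, stroma and basal epithelium, 3 were expressed. These were ACTA2, COL1A1 and CD68, at 69.0, 261 and 66.6 normalized counts. CD68 overlaps a noncoding gene with 405, 335 and 390 reads in replicates 1, 2 and 3 on the opposite strand. ACTA2 likewise overlaps FAS and STAMBPL1, and KRT8 overlaps KRT18. Part of the reads of CD68, ACTA2 and KRT8 is therefore uncertain where the counting did not use strand. Reads of CD3E, CDH5, KRT5 and KRT14 were 0 in each library. The summed level of these 17 markers was between 402 and 544 normalized counts per library, against 78739 to 82521 for the prostate genes.

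Of the 7 genes, 6 were expressed and TFF3 had no reads. Since counts rise with transcript length, the genes were ordered by normalized counts per kilobase of the canonical transcript. SPINK1 was highest at 7218 ± 407 per kilobase (SD, n = 3), followed by MUC13 at 966 ± 43.6, HNF4G at 247 ± 7.20, CDH17 at 115 ± 14.6, AGR2 at 78.5 ± 11.3 and HNF4A at 16.4 ± 3.40. The 3 values of each gene lay above those of the next gene in all 5 neighbouring pairs. An exact permutation test of 3 against 3 values cannot give a two-sided p below 0.1, so the order is described and not tested. Among 12181 expressed protein-coding genes with a known length, 98.0% were below SPINK1 per kilobase, 79.2% below MUC13, 41.7% below HNF4G, 24.8% below CDH17, 17.9% below AGR2 and 3.09% below HNF4A. By this measure SPINK1 stood near the top of the expressed genes and HNF4A near the bottom. By normalized counts, without regard to length, 79.8% of expressed genes were below SPINK1, 78.0% below MUC13 and 6.30% below HNF4A.

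The order rests on the length given to each gene. SPINK1 has a canonical transcript of 413 bases, while the union of all its annotated exons is 1361 bases, and on the union its level was 2190 per kilobase. For HNF4A the lengths were 4645 and 10167 bases, and its level on the union was 7.51 per kilobase. Against expressed protein-coding genes on the same scale, 95.7% were below SPINK1, 51.3% below HNF4G and 1.58% below HNF4A. The order of the 6 genes was the same on the union of exons and on the longest transcript. SPINK1 was 439 times HNF4A per kilobase of canonical transcript and 292 times on the union of exons.

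HNF4A (ENSG00000101076) lies on the plus strand of chromosome 20, from 42984339 to 43061485, in GENCODE annotation lifted to GRCh37, the build of the reads. Its normalized counts were 94.0 in replicate 1, 63.5 in replicate 2 and 71.6 in replicate 3, a mean of 76.4 ± 15.8 (SD, n = 3), from 119, 75 and 91 reads. Replicate 1 was highest, and the SD was 20.7% of the mean, the widest relative spread of the 6 genes. The level was between 2.10 and 3.11 CPM, so HNF4A passed the limit for an expressed gene by a small margin. The antisense gene HNF4A-AS1 had 0 reads in each library. HNF4A has more than 1 promoter, and counts per gene do not tell its isoforms apart.

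HNF4G (ENSG00000164749), the paralog best known from the intestine, lies on the plus strand of chromosome 8, from 76320149 to 76479069. It had 1005.8, 1066.3 and 1036.8 normalized counts in replicates 1, 2 and 3, a mean of 1036 ± 30.3 (SD, n = 3), from 1273, 1260 and 1317 reads. The 3 libraries were close together, and the SD of 2.92% of the mean was the smallest of the 6 genes. HNF4G took 91.5%, 94.4% and 93.5% of the reads on both HNF4 genes, a share of 93.1% ± 1.51 (SD, n = 3). Per kilobase it was 15.0 times HNF4A on canonical transcripts and 28.8 times on the union of exons. The lowest HNF4G library was 10.7 times the highest HNF4A library in normalized counts, so the groups of values did not overlap.

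SPINK1 (ENSG00000164266), a small secreted inhibitor of trypsin made by pancreatic and gut cells, lies on the minus strand of chromosome 5, from 147204135 to 147211234. Its normalized counts were 2810.3, 3146.4 and 2986.9 in replicates 1, 2 and 3, a mean of 2981 ± 168 (SD, n = 3). Its SPINK relatives were mostly silent. SPINK5 was the single other expressed member of 9, at 320 ± 25.6 normalized counts (SD, n = 3). SPINK2 had 3, 14 and 7 reads, SPINK4 had 0, 4 and 0, and SPINK14 had 0, 1 and 0 reads in replicates 1, 2 and 3. SPINK6, SPINK7, SPINK8, SPINK9 and SPINK13 had 0 reads in each library. SPINK1 took 90.1% ± 0.80 (SD, n = 3) of the reads of the 10 genes.

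MUC13 (ENSG00000173702), a transmembrane mucin of the intestinal surface, lies on the minus strand of chromosome 3, from 124624289 to 124672663. It had 2762.1, 2661.5 and 2910.5 normalized counts in replicates 1, 2 and 3, a mean of 2778 ± 125 (SD, n = 3). Replicate 3 was highest, by 1.09 times over replicate 2. The other mucins of the list were far lower. MUC1, the mucin of many glandular cells, had 18, 21 and 22 reads, the goblet cell mucin MUC2 had 0, 1 and 1, and the stomach mucin MUC5AC had 234, 164 and 209. MUC5AC, at 163 ± 23.1 normalized counts (SD, n = 3), was the one other expressed mucin, and it has no canonical transcript in the annotation used. MUC1 and MUC2 are named for their known roles and were chosen after their values were seen.

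MUC13 was also the one gene of the group with a match to an HNF4 recognition sequence in its RefSeq promoter. The motif CAAAGTCCA was searched on both strands from 250 bases before to 50 bases after the start of each gene, without any second motif that could overlap it. It was found in 135 of 35116 promoters (0.384%). The table holds promoters of 4 of the 7 genes, HNF4A, SPINK1, MUC13 and AGR2. Stretches around the match in MUC13 and in 3 listed genes of gut, liver or pancreas are shown because the same letters precede genes of very different level. Of the 122 listed genes with a promoter sequence 6 had a match, and in the other 2, F10 and CD68, it reached past the start and is not printed. The motif, or its reverse complement TGGACTTTG, is in capitals, and each is read 5′ to 3′ on the gene's own strand in GRCh38.p14.
MUC13, chr3:124934764-124934832, minus strand: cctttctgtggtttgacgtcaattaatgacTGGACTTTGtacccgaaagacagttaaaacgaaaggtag
MYO1A, chr12:57050130-57050189, minus strand: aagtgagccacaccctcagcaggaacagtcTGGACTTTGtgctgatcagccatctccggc
AHSG, chr3:186612851-186612919, plus strand: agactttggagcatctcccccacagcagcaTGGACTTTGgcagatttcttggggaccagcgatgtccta
REG1A, chr2:79120238-79120305, plus strand: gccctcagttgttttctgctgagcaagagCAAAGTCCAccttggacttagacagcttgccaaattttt

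The match in MUC13 begins 51 bases before the start, that in MYO1A 30, that in AHSG 179 and that in REG1A 221 bases before it. The start is that of the RefSeq promoter and can differ from the gene ends given above from GENCODE. MYO1A, a brush border myosin, had 1056 ± 52.6 normalized counts (SD, n = 3). The liver gene AHSG had 0, 0 and 1 reads, and the pancreatic gene REG1A had 0, 2 and 1 reads in replicates 1, 2 and 3. F10, a clotting factor gene, had 0, 0 and 1 reads, and the macrophage marker CD68 had 101, 72 and 75. Of the 6 listed genes with a match, MUC13, MYO1A and CD68 were expressed. Over all protein-coding genes with a promoter sequence, 42 of 74 with a match were expressed (56.8%), against 66.2% of all 15095. A match describes the letters of this window and is not evidence of binding.

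CDH17 (ENSG00000079112), the liver-intestine cadherin, lies on the minus strand of chromosome 8, from 95139390 to 95229531. Its normalized counts were 484.3, 384.2 and 401.5 in replicates 1, 2 and 3, a mean of 423 ± 53.5 (SD, n = 3). Replicate 1 stood above the other libraries by 1.26 times the lowest. Its closest relative by structure, the kidney cadherin CDH16, had 0 reads in each library. The epithelial cadherin CDH1 was at 2263 ± 8.31 normalized counts per kilobase and CDH3 at 396 ± 12.7, both above the 115 ± 14.6 of CDH17 (SD, n = 3).

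AGR2 (ENSG00000106541), a disulfide isomerase of the endoplasmic reticulum, lies on the minus strand of chromosome 7, from 16831435 to 16873057. It had 143.8, 144.7 and 111.0 normalized counts in replicates 1, 2 and 3, a mean of 133 ± 19.2 (SD, n = 3). Replicate 3 was the low library, from 141 reads against 182 and 171. AGR3, the closest paralog, lies 26.0 kb away and had 0 reads in each library, so AGR2 held 100% of the reads of the pair. General isomerases of the same fold were far higher per kilobase. P4HB was at 6961 ± 143, PDIA4 at 5560 ± 248, PDIA3 at 3688 ± 97.0 and PDIA6 at 2607 ± 179, against 78.5 ± 11.3 for AGR2 (SD, n = 3).

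TFF3 (ENSG00000160180), the trefoil peptide of goblet cells, lies on the minus strand of chromosome 21, from 43731777 to 43735519 and had 0 reads in replicates 1, 2 and 3. At these depths 0 reads allow a level of up to 3 reads, that is, between 2.36 and 2.54 normalized counts or 0.0778 to 0.0840 CPM per library. The limit is for counting error alone, because copies of a fragment cannot be told from separate molecules in these reads. Both other trefoil genes had a few reads. TFF2 had 29, 16 and 34 reads, and TFF1 had 12, 0 and 16 reads, in replicates 1, 2 and 3. Neither was expressed at 1 CPM, and the TFF3 share of trefoil reads was 0% in each library.

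**Figure D1:**
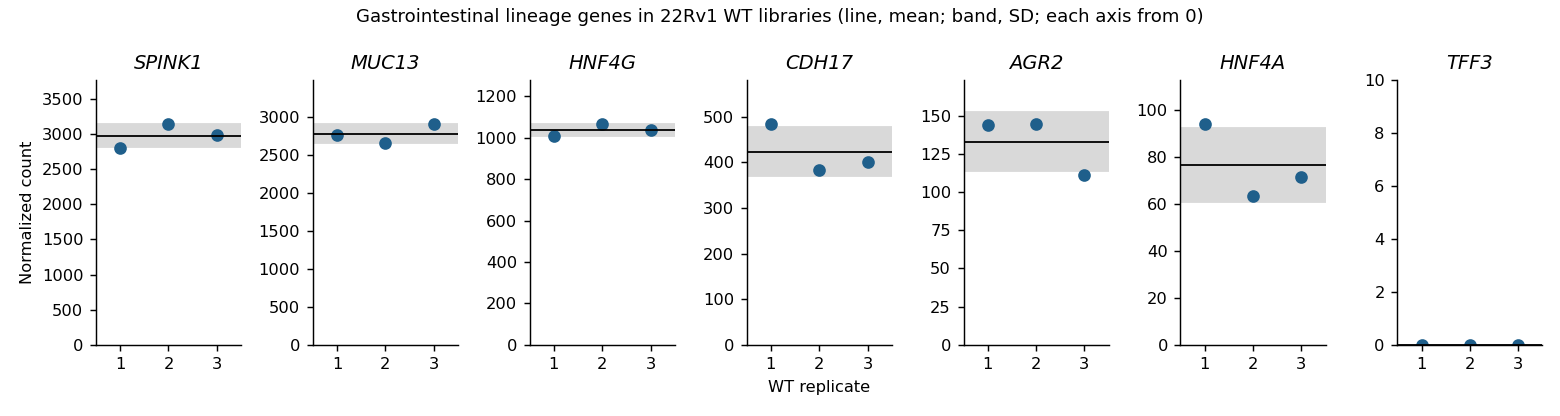
Each panel gives the normalized counts of 1 gene in WT replicates 1, 2 and 3 (points), with the mean (line) and SD (band), on its own axis from 0. The SD is 5.64% of the mean for SPINK1, 4.51% for MUC13 and 2.92% for HNF4G, CDH17 and HNF4A are highest in replicate 1 at 484.3 and 94.0, AGR2 is lowest in replicate 3 at 111.0, and TFF3 is at 0.

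With 1 group of samples analysed, differences between its libraries were tested on reads with a chi-square test of homogeneity. It assumes independent reads, and among 14646 genes that averaged 10 reads or more, 41.9% had an adjusted p under 0.05. Of the 6 tested genes of the group, 4 did, namely SPINK1 (adjusted p = 8.06e-05), CDH17 (adjusted p = 0.00119), MUC13 (adjusted p = 0.00711) and HNF4A (adjusted p = 0.0429). AGR2 had an adjusted p of 0.0627 and HNF4G of 0.432, all by that chi-square test, with p adjusted after Benjamini and Hochberg over the 14646 genes. After the variance was raised by the trended dispersion that edgeR estimates from these libraries, 0 of the 6 had an adjusted or an unadjusted p under 0.05, and 0.416% of all genes were called. Without replicate 1 the chi-square test called 1 of the 6, MUC13, without replicate 2 it called 1, CDH17, and without replicate 3 it called 3.

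The ratio of the highest to the lowest library was 1.48 for HNF4A, 1.31 for AGR2, 1.26 for CDH17, 1.12 for SPINK1, 1.09 for MUC13 and 1.06 for HNF4G on TMM library sizes. For genes within 1.5 times the mean reads of each, the median ratio was 1.35 at HNF4A, 1.26 at AGR2, 1.14 at CDH17, 1.06 at SPINK1, 1.06 at MUC13 and 1.09 at HNF4G. HNF4G was the one gene of the group below the median at its own read level. No library was highest for all of them. Replicate 1 was highest for 2 genes, replicate 2 for 3 and replicate 3 for 1.

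Of 29 transcription factors of gut and neighbouring lineages, 15 were expressed (51.7%, against 63.8% of protein-coding genes). The most abundant per kilobase were FOXA1, a pioneer factor of prostate and gut, at 3650 ± 60.5, SPDEF, a factor of goblet cells and prostate epithelium, at 2528 ± 85.9, the nuclear receptor ESRRA at 2339 ± 106 and the epithelial ETS factor EHF at 1081 ± 29.1 (SD, n = 3). Each was above HNF4G, at 247 ± 7.20. ESRRA overlaps TRMT112 on the opposite strand, and FOXA1 overlaps TTC6, so part of their reads is uncertain where the counting did not use strand, which the text of the paper does not name. CDX1 and CDX2, which specify the intestine, and the liver factor ONECUT1 had 0 reads in each library. In normalized counts, without regard to length, GATA6, a factor of endoderm, was at 519 ± 60.3 (SD, n = 3). ONECUT2, a relative of ONECUT1, was at 3565 ± 365 (SD, n = 3), against 12807 for FOXA1 on that scale. GATA6 and ONECUT2 were chosen after their values were seen.

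Of 26 enterocyte and brush border genes, 11 were expressed (42.3%). LGALS4, a lectin of intestinal epithelium, was at 669 ± 1.87 normalized counts per kilobase, and VIL1, which encodes the microvillus protein villin, was at 633 ± 10.3 (SD, n = 3). VIL1 had 5282, 4884 and 5135 reads in replicates 1, 2 and 3, more than MUC13, and it overlaps USP37 on the opposite strand. MYO1A followed at 291 ± 14.5 per kilobase and the peptidase DPP4 at 130 ± 3.89 (SD, n = 3). FABP1, a fatty acid carrier, the digestive enzyme LCT, the alkaline phosphatase ALPI and the myosin MYO7B had 0 reads in each library.

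Of 25 genes of goblet cells, trefoil peptides and mucins, 5 were expressed (20.0%). REG4, a secreted lectin, was the highest at 92.9 ± 4.65 per kilobase, followed by CREB3L1 at 24.7 ± 2.17, BCAS1 at 15.3 ± 1.81 and FCGBP, a mucus protein, at 11.0 ± 0.944 (SD, n = 3). All 4 were below MUC13, at 966 ± 43.6. MUC15, MUC16, MUC17 and MUC21 had 0 reads in each library.

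Of 30 liver-type genes known to depend on HNF4 factors, 4 were expressed (13.3%), and 11 had 0 reads in each library. ALB, the gene of serum albumin, stood out with 10911.6, 10088.1 and 10764.3 normalized counts in replicates 1, 2 and 3, a mean of 10588 ± 439 (SD, n = 3). Per kilobase it was at 4634 ± 192, above 96.3% of expressed protein-coding genes and below SPINK1, whereas on the union of exons ALB, at 3086, was above SPINK1, at 2190. AMBP, which encodes a plasma protease inhibitor precursor, was at 623 ± 36.6 normalized counts, the transporter gene ABCC6 at 161 ± 3.59 and the plasma protein gene APOH at 111 ± 24.1 (SD, n = 3). The apolipoprotein genes APOA2, APOA4, APOC2 and APOC3 had 0 reads in each library. Of 18 measured genes of stomach and exocrine pancreas, none was expressed at 1 CPM, and 13 had 0 reads, among them GKN1, GKN2, LIPF and PGA3. PGA3 has near-identical copies at PGA4 and PGA5, AMY2A at AMY2B and CTRB1 at CTRB2, so the 0 of each of these 3 genes is uncertain, as reads shared with a copy may not have been assigned.

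**Figure D2:**
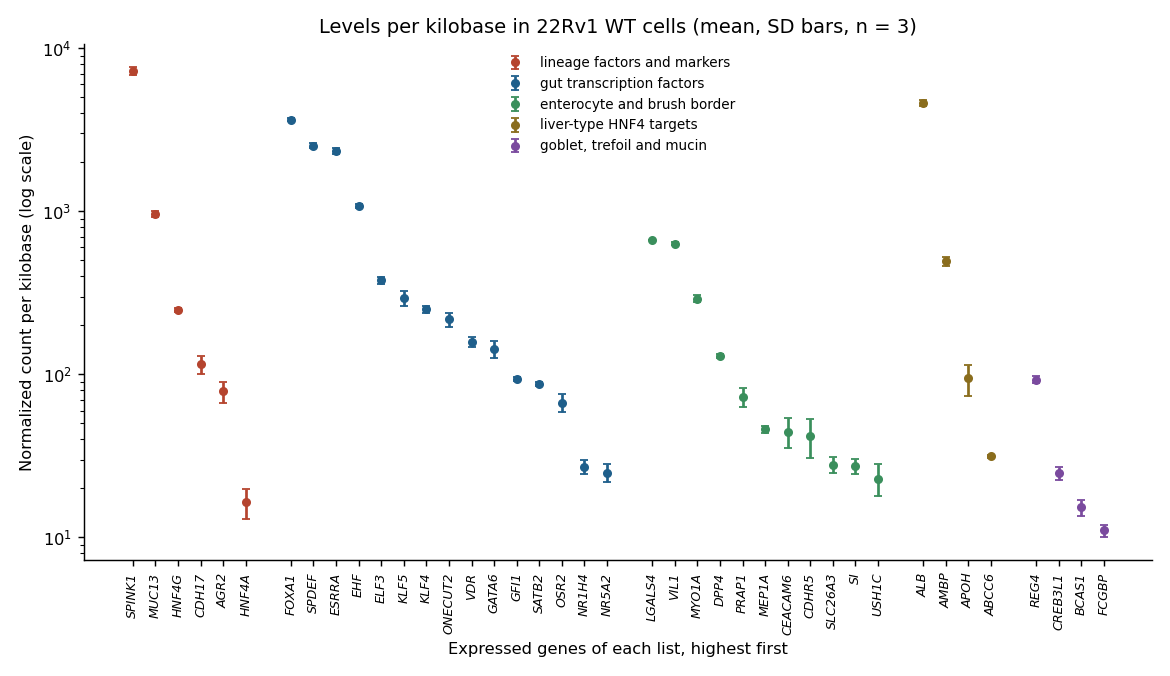
Points give the mean normalized count per kilobase (log axis) with SD bars over 3 WT libraries for each expressed gene with a canonical transcript length, in the 7 genes and the 4 lists of gut transcription factors, brush border, liver-type and goblet genes. SPINK1 at 7218 is the highest point of these 5 groups, ALB at 4634 and FOXA1 at 3650 lead their lists, and REG4 at 92.9 is the highest of the goblet and mucin genes.

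Over all measured genes of a list, the median normalized count was 423 for the 7 genes, 74.4 for the transcription factors, 24.1 for the brush border list, 7.37 for the goblet list, 0.55 for the liver list and 0 for the stomach and pancreas list, against 352 for all protein-coding genes. The medians of every gut list other than the 7 genes were thus below that of protein-coding genes. Even so, the liver list holds ALB at 10588 and the transcription factors FOXA1 at 12807 normalized counts. The value of 352 includes genes that were not expressed. Among expressed genes alone, the median per kilobase was 181 for the group, below the 332 of protein-coding genes. The 7 genes were chosen with earlier results of these data known, so their place above the lists is described only.

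The neighbouring genes on the chromosome did not share 1 level with the group. R3HDML, 4.46 kb from HNF4A, and SCGB3A2, 39.0 kb from SPINK1, had 0 reads in each library. The neighbours on the other sides were expressed. TTPAL, 43.0 kb from HNF4A, was at 761 ± 62.9 normalized counts, and JAKMIP2, 41.8 kb from SPINK1, at 179 ± 16.1 (SD, n = 3). ITGB5, an integrin gene 4.02 kb from MUC13, was at 5464 ± 144 normalized counts, and TSPAN13, 7.27 kb from AGR2, was at 1943 ± 65.3 (SD, n = 3). TFF3 lies between TFF2 and ABCG1, and neither of these neighbours was expressed at 1 CPM. CDH17 lies beside GEM, which had 51, 35 and 34 reads. PDP1, 201 kb from CDH17 on the other side, was expressed at 451 ± 38.9 normalized counts (SD, n = 3). HNF4G has no protein-coding gene within 373 kb on either side. HNF4G, SPINK1, MUC13 and AGR2 overlap no other annotated gene. HNF4A overlaps noncoding genes, and CDH17 overlaps the pseudogene RPL6P23 on the same strand, which has no counts of its own here. None of the 7 has a near-identical copy in the annotation (50% of length, 98% identity). Shorter or less similar copies are not covered by that limit.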

How the data were processed

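Per the labels and the paper's methods, the authors mapped 22Rv1 reads to GRCh37/hg19 with HISAT2 and a GENCODE annotation, used HTSeq for the reads of each gene and DESeq2 for normalization. Each deposited signal value is a gene's reads over the size factor of the library (1.27, 1.18 and 1.27 in replicates 1, 2 and 3), given to 1 decimal. Strandedness and the handling of reads with several places are not given in the sources used here. Reads were recovered from the step of each library, which made 100% of values above 0 whole within rounding. Neighbouring rows with the same reads in all libraries, and at least 1 above 0, were merged, which left 27024 of 29000 rows. Symbols matched 86.3% of identifiers.

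TMM library sizes came from edgeR 4.0.16 (R 4.3.3). The chi-square test of homogeneity (scipy 1.17.1) covered genes that averaged 10 reads or more, at an adjusted p of 0.05 (Benjamini-Hochberg). It was tried on simulated independent reads only. These hold no spread beyond counting error, so that trial cannot show how the test behaves on the real libraries. Lengths came from GENCODE annotation lifted to GRCh37, promoters from RefSeq, and near-identical copies (50% of length, 98% identity) from minimap2 2.31. Of the listed genes, the 4 most abundant expressed and up to 4 with 0 reads were named per list, with close relatives. The genes and lists were chosen with earlier results of these data known. Some genes of the lists and other factors of the same program are not reported here. With 1 group, no test between conditions was possible. DESeq2 1.42.0 size factors were an alternative.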

Additional observations from a re-analysis of the deposited data

How the results depend on the processing

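With edgeR's trended dispersion added, 0 of 6 genes differed between WT libraries, against 4, and 61 of all genes, against 6141. The added variance comes from the spread of the same libraries. With each replicate left out in turn, between 1 and 3 of the 6 and between 3323 and 3950 of all genes differed, in tests of fewer libraries. At 5 CPM, 4 of the 7 genes stayed expressed, 4 of the brush border list against 11, 0 of the goblet list against 5 and 1 of the markers of other cell types against 3. At 10 reads in all 3 libraries, 8 of the liver list were counted against 4, 9 of the goblet list against 5, 6 of the other cell types against 3 and 1 of the stomach and pancreas list against 0, which was also 1 at 0.5 CPM. The share of SPINK1 in its family was 98.6% per kilobase against 90.1% of reads. The 42 recomputed levels moved by less than 1 SD, which follows from 3 libraries or from a common scale and is not evidence of stability. The order per kilobase kept all 6 ranks under 5 alternatives. No paired analysis was possible because only 1 group was analysed. Depth limits TFF3, whose 0 reads allow up to 3.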
